A study of Mus musculus with 8 samples.

Results

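Antiviral interferon-stimulated genes (ISGs) were examined in tumor-associated macrophages (TAMs) taken from B16 melanomas of mice with and without Colec11, the gene for the soluble C-type lectin collectin-11. A list of 42 genes was matched by gene symbol to the 21051 protein-coding genes of the deposited tables, and 40 were found. Mx1 and Mx2 were not analysed here. TAM-WT were CD45+F4/80+ cells sorted from subcutaneous tumors of 4 WT C57BL/6 mice on day 14 after injection, and TAM-KO were the same cells from 4 Colec11-/- mice on the C57BL/6 background. By the study's methods the mice were young adult males, and the WT mice were littermates of the Colec11-/- mice. Colec11 is missing from all cells of these mice, not from macrophages alone. Each group has 4 libraries, numbered as replicates 1 to 4.

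ISGs are switched on when interferon binds its receptor at the cell surface. Type I interferons act through TYK2 and JAK1 on promoters that hold the interferon-stimulated response element (ISRE). Interferon gamma, made mainly by T and NK cells, acts on promoters that hold the gamma-activated site (GAS), and it also raises many of the same genes. Their products sense viral nucleic acid, block translation or entry of viruses, and tune the signal itself. In tumors, macrophages are among the cells that show this program.

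Apart from TAM-KO replicate 1, the libraries held 16225362 to 17280267 reads on genes. A run of 5311 genes is missing from the table of TAM-KO replicate 1, so that 12572 genes had a value in all 8 tables, and the libraries held 10061535 to 10607640 reads on those. Of the 40 ISGs, 36 had a value in all 8 tables. Ifit1, Ifit2, Ifit3 and Isg15 lacked TAM-KO replicate 1. For these 4 genes the level of that library was taken from the authors' table of the whole series, and the test was made on 3 TAM-KO libraries. That table lists only the 3996 genes that the authors named as differentially expressed. Levels taken from it therefore exist only for genes chosen on the same contrast. Macrophage markers were high in every library with a value, with Adgre1, which encodes F4/80, at 182 to 239 FPKM. Colec11 itself had 0 to 4 counts per library in both groups, too few to check the genotype. FPKM is a count of fragments scaled to transcript length and to the mapped reads of the library, so that levels can be compared between genes.

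The antiviral ISGs that passed the test were all higher in TAM-KO than in TAM-WT. By edgeR's quasi-likelihood test with Benjamini-Hochberg adjustment over 12412 genes, 12 of 40 rose at an adjusted p of at most 0.05, against 4.58% of all genes tested. These were Ddx58, Zbp1, Oas1g, Oas3, Herc6, Parp9, Parp12, Ifitm3, Xaf1, Ifi44, Ifi35 and Nmi. How many passed depended on the tool. The count was 27 of 40 by DESeq2, 29 by voom, and 23 or 25 by limma on FPKM, by the value added before the log. These tools also called more of all genes tested higher, 8.71% by DESeq2, 14.7% by voom and 7.07% or 7.38% by limma. No member fell, whether by edgeR, DESeq2, limma or voom, where 5.24% of all genes fell by edgeR. None was lower at an unadjusted p below 0.05 (0 of 40 by edgeR). In bulk RNA of sorted cells, more RNA per cell and more cells that express a gene cannot be told apart. The plot of fold changes by role shows each of the 40 genes.

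**Figure D1:**
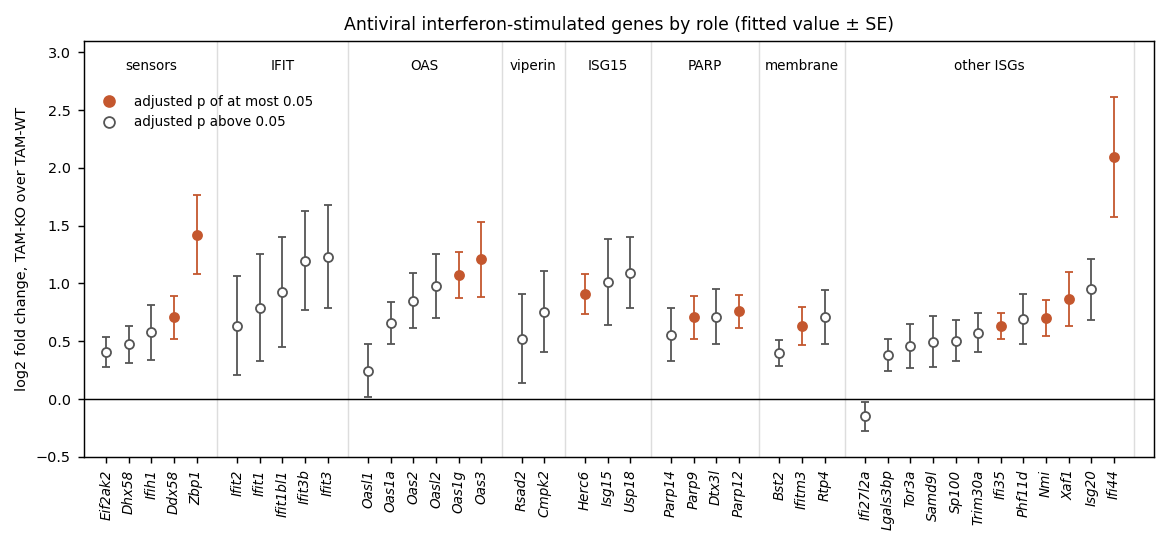
Fitted log2 fold change (TAM-KO over TAM-WT, vertical axis) with its SE for the 40 ISGs in 8 role groups (Ifit1, Ifit2, Ifit3 and Isg15 on 3 TAM-KO libraries). Filled points passed an adjusted p of 0.05; 39 of 40 values lie above 0, and Ifi27l2a lies below it.

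The median log2 fold change of the 40 genes was 0.71, beside 0.0016 over all genes tested. Of the 40 values, 39 were above 0, as were 50.3% of all genes. Called and at least 2-fold higher were 4 genes, Zbp1, Oas1g, Oas3 and Ifi44, where 1.41% of all genes tested passed both thresholds upwards. Ifit3, Ifit3b, Usp18 and Isg15 had fitted rises of 2.35-fold, 2.29-fold, 2.13-fold and 2.02-fold but were not called. Every TAM-KO library stood above every TAM-WT library in CPM, counts scaled to library size, for 16 of the 36 genes with 8 values, against 7.8% of 9396 genes. In FPKM, where library composition is not adjusted for, this held for 24 of the 36, against 12.3%. Of all calls over the whole table, 46.6% were higher in TAM-KO, and with scaling to total reads alone 64.4% were.

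The 12 calls were close to the threshold. Their adjusted p lay between 0.0184 and 0.0459, and 7 further genes lay between 0.05 and 0.06. These were Bst2, Oas1a, Oas2, Isg20, Usp18, Oasl2 and Trim30a. An unadjusted p below 0.05 was seen for 33 of the 40. The share of all genes at that level was not counted in any fit. Counts at an unadjusted p below 0.05, here and further on, therefore have no background to be read against. Leaving out replicate 3 of TAM-WT, or replicate 2 or 3 of TAM-KO, left 0 of 40 genes called by edgeR, the only tool run on these fits, with 27, 28 and 26 at an unadjusted p below 0.05. Over all genes, calls fell in these fits from 1218 to 151, 77 and 77. Without TAM-KO replicate 1, 7 genes were called, 6 of the 12 and Bst2. Without TAM-KO replicate 4, 5 of the 12 were called, and without TAM-WT replicate 2 all 12 and 8 more. Over all genes, 2.5%, 3.76% and 11.6% were called higher in these fits, in the same order. Without TAM-WT replicate 2, calls over all genes rose from 1218 to 2755. The median log2 fold change stayed between 0.53 and 0.86 over the 8 fits that leave out a library.

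The promoters of these genes were searched for the core of the ISRE, GAAANNGAAA, and for the GAS, TTCNNNGAA, on both strands. RefSeq windows of 300 bases, from 250 before the transcription start to 50 after it, were held for 31 of the 40 genes (GRCm38.p6). The ISRE core was in 15 of the 31 (48.4%, 95% exact interval 30.2% to 66.9%) and in 3.96% of the 16835 genes with a window. The GAS was in 7 of 31 (22.6%) and in 8.99% of all. In Bst2 and Ifitm3 the matches of both motifs overlap. The windows of 4 genes that rose and hold the ISRE core are shown with that of Isg15, which holds the most copies among the 31. Capitals mark the ISRE core or, on the other strand, its reverse complement, and each window is given along its gene's strand.
Ddx58 (chr4:40239776-40240075, minus strand): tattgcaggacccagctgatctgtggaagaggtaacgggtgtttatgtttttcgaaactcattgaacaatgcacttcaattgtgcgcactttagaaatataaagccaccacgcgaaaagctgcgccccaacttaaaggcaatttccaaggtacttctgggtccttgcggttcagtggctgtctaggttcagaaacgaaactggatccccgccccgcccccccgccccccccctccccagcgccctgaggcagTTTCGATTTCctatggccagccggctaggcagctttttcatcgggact
Oas1g (chr5:120887564-120887863, minus strand): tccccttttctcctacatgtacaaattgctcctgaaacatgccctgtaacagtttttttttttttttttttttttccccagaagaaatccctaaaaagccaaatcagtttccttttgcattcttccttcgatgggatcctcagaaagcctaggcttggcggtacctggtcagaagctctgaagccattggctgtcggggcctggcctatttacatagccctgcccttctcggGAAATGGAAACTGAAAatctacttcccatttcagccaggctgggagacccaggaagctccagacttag
Oas3 (chr5:120777610-120777909, minus strand): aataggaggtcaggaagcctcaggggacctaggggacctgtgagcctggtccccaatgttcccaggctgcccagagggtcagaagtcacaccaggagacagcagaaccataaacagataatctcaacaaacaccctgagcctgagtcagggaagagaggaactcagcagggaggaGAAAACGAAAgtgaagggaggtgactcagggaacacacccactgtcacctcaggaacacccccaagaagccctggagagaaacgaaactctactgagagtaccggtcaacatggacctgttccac
Ifitm3 (chr7:141010695-141010994, minus strand): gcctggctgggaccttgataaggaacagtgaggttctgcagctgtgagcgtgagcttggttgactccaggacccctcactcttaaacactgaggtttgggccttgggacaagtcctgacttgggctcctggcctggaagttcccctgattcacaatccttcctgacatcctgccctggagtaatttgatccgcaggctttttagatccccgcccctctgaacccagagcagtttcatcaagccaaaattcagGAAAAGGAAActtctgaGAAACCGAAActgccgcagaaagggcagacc
Isg15 (chr4:156200769-156201068, minus strand): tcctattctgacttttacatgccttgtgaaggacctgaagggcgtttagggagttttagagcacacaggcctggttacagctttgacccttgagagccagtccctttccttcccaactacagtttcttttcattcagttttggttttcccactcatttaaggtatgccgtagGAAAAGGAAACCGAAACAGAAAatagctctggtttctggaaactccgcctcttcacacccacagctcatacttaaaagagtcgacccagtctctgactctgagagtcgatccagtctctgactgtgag
The core begins 2 bases after the start in Ddx58, 18 and 12 before it in Oas1g, 75 before it in Oas3, and 2 and 19 after it in Ifitm3. In Isg15 3 overlapping copies begin 78, 72 and 66 bases before the start. Of the 10 called genes with a window, 4 held the core, as did 11 of the 21 genes not called. Herc6, Ifi35, Ifi44, Nmi, Parp12 and Xaf1 rose and had no exact match of the ISRE core in these windows, and Ifi35 held a GAS 7 bases after the start. A match is a run of letters and does not show binding.

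**Figure D2:**
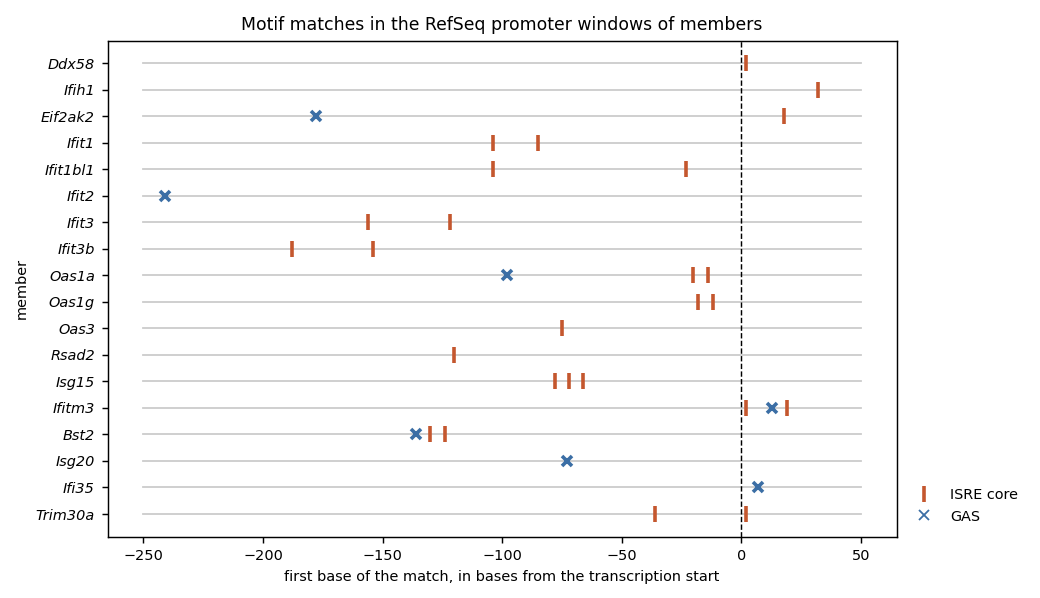
Positions of ISRE core (bars) and GAS (crosses) matches in the promoter windows of the 18 ISGs that hold either, by the distance of the first base of the match from the transcription start in bases (horizontal axis, 1 line per gene). In Oas1a and Oas1g the ISRE core lies within 20 bases before the start, and in Oas3 it lies 75 before it. In Ifit1, Ifit3 and Ifit3b it lies 85 to 188 bases before the start, and in Ifit1bl1 104 or 23 before it, by the window.

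Among the 5 nucleic acid sensors, 2 rose. Ddx58 encodes RIG-I, which detects viral RNA ends in the cytosol. In order of replicate number, its FPKM was 14.1, 8.40, 9.20 and 15.2 in TAM-WT and 17.1, 21.6, 21.8 and 22.1 in TAM-KO, so that the groups did not overlap. This is 1.63-fold (log2 0.71 ± 0.19 SE, adjusted p = 0.0452 by edgeR). Zbp1 encodes a sensor of left-handed nucleic acid that can start cell death. Zbp1 had 47.7, 14.5, 27.3 and 44.0 FPKM in TAM-WT and 58.7, 109.6, 100.5 and 79.6 FPKM in TAM-KO. The groups did not overlap, but TAM-WT replicate 2 lay far under replicates 1 and 4 of its group. Zbp1 rose 2.68-fold (log2 1.42 ± 0.34 SE, adjusted p = 0.0353). The RNA sensor Ifih1 (MDA5), its relative Dhx58 (LGP2) and the translation-blocking kinase Eif2ak2 (PKR) did not pass, at log2 fold changes of 0.58, 0.47 and 0.41 (smallest adjusted p = 0.0698, for Eif2ak2).

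Of the IFIT family, whose proteins bind viral RNA that lacks the host's cap marks, 0 of 5 passed the test in edgeR on all libraries, with 2 at an unadjusted p below 0.05, and Ifit3b passed without TAM-WT replicate 4. By other tools, Ifit3 and Ifit3b passed in voom with quality weights, Ifit3b also in limma on log2(FPKM + 1), and 0 of 5 passed in DESeq2. The fitted fold changes were not small. Their median log2 value was 0.92, and they ranged from 0.64 for Ifit2 to 1.23 for Ifit3. Ifit3, the most abundant of the family, had 25.5, 8.48, 10.2 and 34.4 FPKM in TAM-WT and 28.45, 43.1, 58.5 and 46.9 FPKM in TAM-KO. TAM-WT replicate 4 exceeded TAM-KO replicate 1, so the groups overlapped. Its log2 fold change was 1.23 ± 0.45 SE (adjusted p = 0.108, on 3 TAM-KO libraries). Within TAM-WT the highest library was 3.81 to 5.68 times the lowest across the 5 genes, and in TAM-KO 1.53 to 2.12 times. The 5 genes lie on chromosome 19. Ifit3 and Ifit3b share 51.2% and 45.0% of their 50-base stretches with other genes, mostly with each other, so the split of reads between them is uncertain.

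In the OAS family, whose enzymes make the 2-5A signal that activates RNase L, 2 of 6 rose. Oas1g had 11.0, 6.50, 6.91 and 10.8 FPKM in TAM-WT and 14.3, 22.2, 22.1 and 21.15 FPKM in TAM-KO. The libraries of the groups did not overlap. Oas1g rose 2.10-fold (log2 1.07 ± 0.20 SE, adjusted p = 0.0205), but it shares 54.7% of its 50-base stretches with Oas1a and Oas1b, and reads may be split between these copies. Oas3, the longest of the enzymes, had 8.09, 3.25, 5.93 and 11.7 FPKM in TAM-WT and 13.1, 20.4, 20.5 and 19.4 FPKM in TAM-KO. This is 2.32-fold without overlap (log2 1.21 ± 0.32 SE, adjusted p = 0.0457). Oas1a, Oas2 and Oasl2 missed the threshold narrowly, with log2 fold changes of 0.66, 0.85 and 0.98 at adjusted p of 0.0511, 0.0511 and 0.0537. Oasl1, which limits translation of IRF7, differed least in the family (log2 0.24 ± 0.23 SE, adjusted p = 0.501). All 6 genes lie on chromosome 5.

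**Figure D3:**
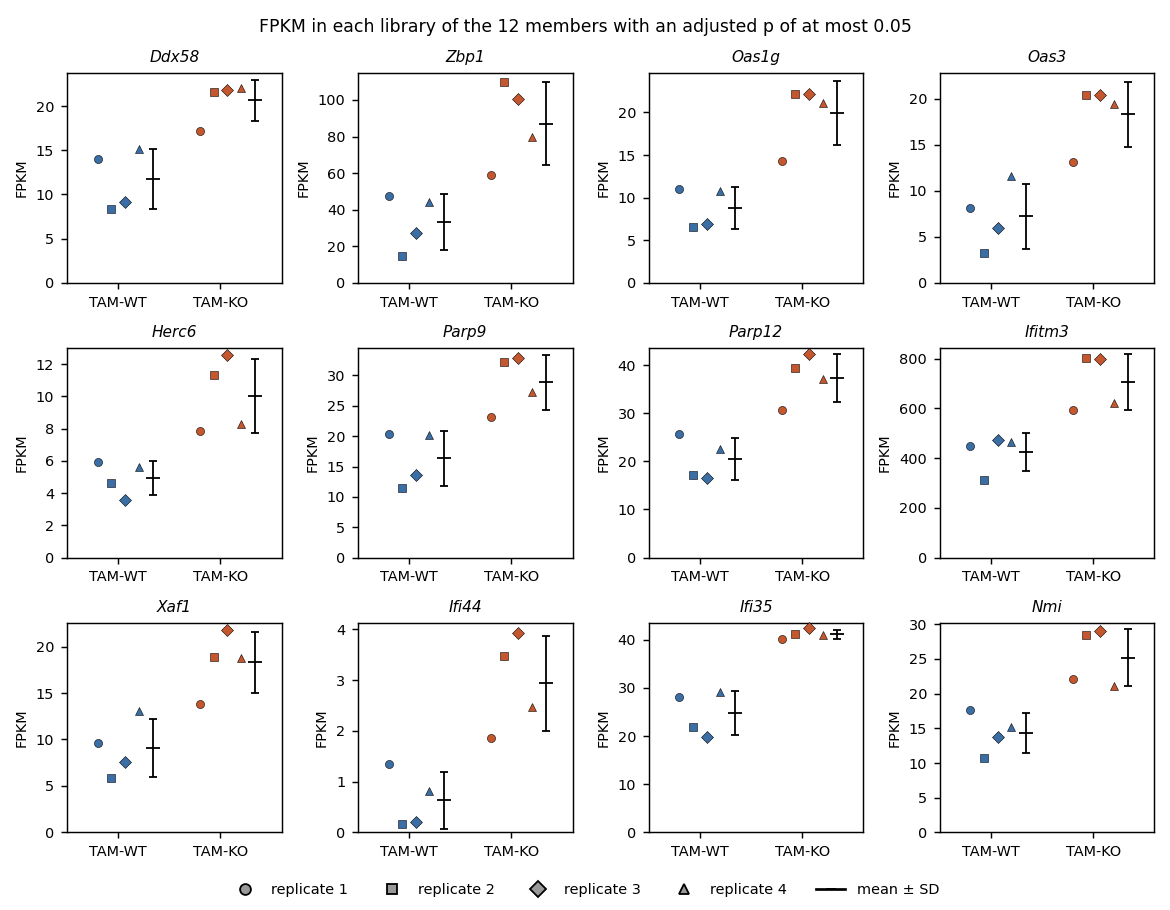
FPKM (vertical axes, from 0) in each library of the 12 genes that rose, with TAM-WT in blue and TAM-KO in orange, a marker shape for each replicate number, and mean ± SD (n = 4) beside the points. In all 12 panels the lowest TAM-KO library lies above the highest TAM-WT library; TAM-WT replicates 2 and 3 and TAM-KO replicate 1 are often the low points.

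Neither gene of the viperin locus passed the test in edgeR (0 of 2 also at an unadjusted p below 0.05), and 0 of 2 passed in DESeq2, voom or limma. Rsad2 encodes viperin, which makes a chain-terminating nucleotide against viral polymerases, and Cmpk2 next to it on chromosome 12 encodes a nucleotide kinase. Rsad2 had 33.9, 14.5, 19.6 and 54.3 FPKM in TAM-WT and 32.9, 36.9, 64.7 and 55.2 FPKM in TAM-KO. TAM-WT replicate 4 was above TAM-KO replicates 1 and 2. The log2 fold change was 0.52 ± 0.39 SE for Rsad2 (adjusted p = 0.391) and 0.76 ± 0.35 SE for Cmpk2 (adjusted p = 0.176).

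In the ISG15 pathway, which tags proteins with a ubiquitin-like modifier, Herc6 rose and the other two did not pass. Herc6, the main ligase for ISG15 in mice, had 5.92, 4.64, 3.60 and 5.59 FPKM in TAM-WT and 7.86, 11.35, 12.55 and 8.27 FPKM in TAM-KO. TAM-KO replicates 1 and 4 were nearer to TAM-WT than replicates 2 and 3. Herc6 rose 1.88-fold (log2 0.91 ± 0.17 SE, adjusted p = 0.0209). Isg15, the modifier itself, had mean levels of 50.2 ± 26.6 FPKM in TAM-WT and 101.4 ± 18.4 FPKM in TAM-KO (SD, n = 4 each), with a log2 fold change of 1.01 ± 0.37 SE (adjusted p = 0.111, on 3 TAM-KO libraries). Usp18, which removes ISG15 and damps signaling at the interferon receptor, had a log2 fold change of 1.09 ± 0.31 SE (adjusted p = 0.0529).

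Of the PARP and DTX3L family, 2 of 4 rose. Parp9 acts with the ubiquitin ligase DTX3L in the interferon response. It had 20.35, 11.5, 13.6 and 20.1 FPKM in TAM-WT and 23.2, 32.2, 32.9 and 27.2 FPKM in TAM-KO. Parp9 rose 1.63-fold without overlap (log2 0.71 ± 0.19 SE, adjusted p = 0.0449). Parp12, a mono-ADP-ribosyltransferase that blocks replication of RNA viruses, had 25.6, 17.1, 16.6 and 22.7 FPKM in TAM-WT and 30.6, 39.3, 42.2 and 37.2 FPKM in TAM-KO. It rose 1.69-fold (log2 0.76 ± 0.14 SE, adjusted p = 0.0205), and its libraries did not overlap either. Dtx3l and Parp14, neighbors of Parp9 on chromosome 16, did not pass (log2 fold change 0.71, adjusted p = 0.0786 for Dtx3l, and 0.56, adjusted p = 0.135 for Parp14).

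Among membrane-bound factors, Ifitm3 rose. Its product stops viruses from fusing with endosomes, and with a mean of 564 FPKM over the 8 libraries it was the most abundant of the 40 genes. Ifitm3 had 449, 311, 474 and 464 FPKM in TAM-WT and 593, 804, 799 and 621 FPKM in TAM-KO. TAM-WT replicate 2 stood under the other 3 TAM-WT libraries, and all TAM-KO libraries were above them. This is 1.55-fold (log2 0.63 ± 0.16 SE, adjusted p = 0.0419). Bst2 (tetherin), which holds budding virions at the cell surface, lay just outside the threshold (log2 0.40 ± 0.11 SE, adjusted p = 0.0503), and Rtp4, a receptor chaperone, had a log2 fold change of 0.71 ± 0.23 SE (adjusted p = 0.0745).

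Of the 12 other ISGs, 4 rose, and 8 did not pass. Ifi35 and Nmi encode binding partners that share a domain and act on the same signaling steps. Ifi35 had 28.1, 21.8, 19.9 and 29.1 FPKM in TAM-WT and 40.2, 41.1, 42.4 and 40.9 FPKM in TAM-KO. The TAM-KO libraries were within 1.06 times of each other, the closest of the 40 genes. Ifi35 rose 1.55-fold (log2 0.63 ± 0.11 SE) with an adjusted p of 0.0184, the smallest among the ISGs. Nmi had 17.7, 10.75, 13.8 and 15.2 FPKM in TAM-WT and 22.1, 28.4, 29.05 and 21.2 FPKM in TAM-KO, and rose 1.63-fold (log2 0.70 ± 0.16 SE, adjusted p = 0.0295). The groups did not overlap for either gene.

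Xaf1, a partner and antagonist of the apoptosis inhibitor XIAP, had 9.67, 5.88, 7.58 and 13.1 FPKM in TAM-WT and 13.9, 18.9, 21.8 and 18.8 FPKM in TAM-KO. It rose 1.82-fold (log2 0.87 ± 0.23 SE, adjusted p = 0.0459), with TAM-WT replicate 4 close to TAM-KO replicate 1. Ifi44 had 1.35, 0.16, 0.21 and 0.82 FPKM in TAM-WT and 1.87, 3.47, 3.94 and 2.48 FPKM in TAM-KO. Ifi44 was the least abundant of the 40 genes and had the largest fold change among them, 4.28-fold (log2 2.10 ± 0.52 SE, adjusted p = 0.0384). Its highest TAM-WT library was 8.44 times its lowest. The exonuclease Isg20, at log2 0.95 ± 0.27 SE and an adjusted p of 0.0518, was the nearest to passing of the remaining 8. Ifi27l2a differed in sign from the rest. At 455 ± 52.4 FPKM in TAM-WT and 431 ± 52.3 FPKM in TAM-KO (SD, n = 4 each), it was the second most abundant gene of the list, and its log2 fold change was -0.15 ± 0.13 SE (adjusted p = 0.460). That value was negative in all 19 fits run, scaling to total reads included.

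The libraries of a group differed from each other in the same direction over most of the genes. TAM-WT replicate 2 was the lowest TAM-WT library in FPKM for 37 of 40 genes, and the highest was replicate 4 for 28 and replicate 1 for 11. In TAM-KO, replicate 1 was the lowest for 37 and replicate 3 the highest for 27. How many of all genes rank the libraries so was not counted. The macrophage marker Adgre1 was also lowest in TAM-WT replicate 2 of its group (186 FPKM), while the marker Lyz2 was lowest in replicate 4. The median over 36 genes of the log2 CPM relative to the mean of 8 libraries was, by replicate number, -0.09, -0.91, -0.51 and 0.10 in the TAM-WT group and 0.08, 0.41, 0.54 and 0.41 in the TAM-KO group. TAM-WT replicate 4 and TAM-KO replicate 1 were therefore about level on this measure, as the plot of libraries shows. TAM-KO replicates 2 to 4 all stood above every TAM-WT library in FPKM for 33 of the 40 genes. This rule sets aside TAM-KO replicate 1, the lowest of its group for 37. The share of all genes that meet it was not counted, so the 33 has no background to be read against. The ratio of the highest to the lowest library was larger in TAM-WT for 37 genes, with a median of 2.14 times in TAM-WT and 1.49 times in TAM-KO. This ratio was not compared with that of all genes.

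**Figure D4:**
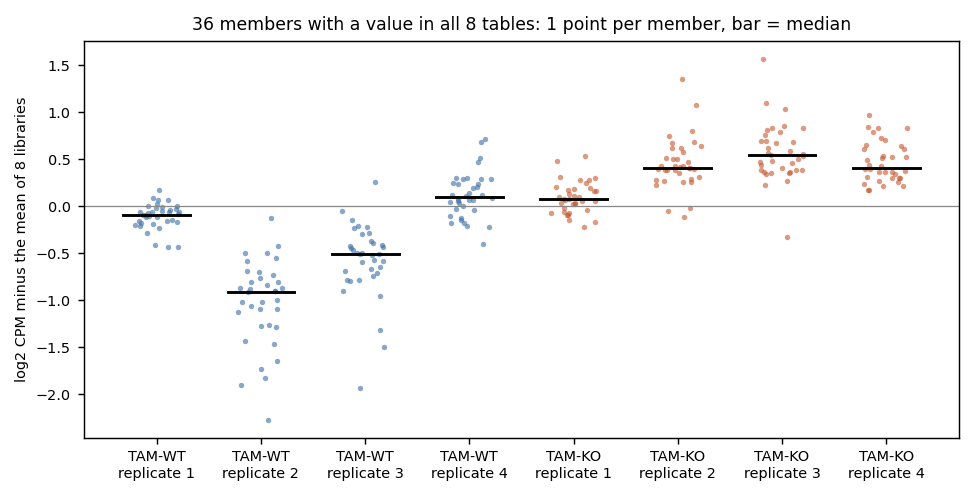
Log2 CPM of 36 ISGs minus each gene's mean over the 8 libraries (vertical axis), with 1 point per gene, the median as a bar, TAM-WT in blue and TAM-KO in orange. The medians run from -0.91 in TAM-WT replicate 2 to 0.54 in TAM-KO replicate 3, and those of TAM-WT replicate 4 (0.10) and TAM-KO replicate 1 (0.08) lie side by side.

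Genes upstream of the ISGs were taken from lists of the interferon pathway. Of 12 genes that lead to interferon production, Sting1 and Tlr3 rose and none was called lower by edgeR on all libraries. Sting1, the adaptor for cytosolic DNA, rose 1.55-fold (adjusted p = 0.0302), and Tlr3, a receptor for double-stranded RNA, rose 1.86-fold (adjusted p = 0.0168, on 3 TAM-KO libraries). Irf7, itself an ISG and the amplifier of type I interferon, had a log2 fold change of 1.25 ± 0.36 SE (adjusted p = 0.0538). Tlr7 had a log2 fold change of -0.37 ± 0.10 SE (adjusted p = 0.0507, on 3 TAM-KO libraries). Tlr7 was called lower by DESeq2, by voom and, in edgeR, without TAM-WT replicate 2, and the kinase Tbk1 by voom and in that same edgeR fit. The adaptor Mavs, the DNA sensor Cgas and the factor Irf3 had log2 fold changes of 0.05, 0.23 and 0.17, none past the threshold.

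Interferon transcripts were few. Of 19 interferon genes on the list, 11 had values and 2 passed the filter on low counts, Ifnb1 and Ifng, which are both named for that reason. On all libraries neither was called by edgeR or DESeq2, voom called Ifng higher and Ifnb1 lower, and limma on FPKM called Ifng higher. In edgeR, Ifng was called higher with the replicate block and without TAM-WT replicate 1, and Ifnb1 lower without TAM-WT replicate 2. Ifng, for interferon gamma, had 2.49, 0, 0.12 and 0 FPKM in TAM-WT and 3.59, 7.77, 6.11 and 2.15 FPKM in TAM-KO. TAM-WT replicate 1 was above TAM-KO replicate 4, and the other TAM-WT libraries were at or near 0. The log2 fold change of Ifng was 2.94 ± 1.04 SE (adjusted p = 0.102, on 3 TAM-KO libraries). Ifnb1, for interferon beta, ran the other way, with 4.56, 1.59, 2.91 and 5.50 FPKM in TAM-WT and 1.02, 0.60, 1.51 and 2.29 FPKM in TAM-KO. These levels overlap between groups, and the log2 fold change was -1.38 ± 0.54 SE (adjusted p = 0.128, on 3 TAM-KO libraries). Within TAM-WT, replicate 4 was highest and replicate 2 lowest for Ifnb1, as for most ISGs. Within TAM-KO the order differed, with Ifnb1 highest in replicate 4 and lowest in replicate 2, and most ISGs highest in replicate 3 and lowest in replicate 1. The other 9 interferon genes with values had at most 2 counts in any library.

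**Figure D5:**
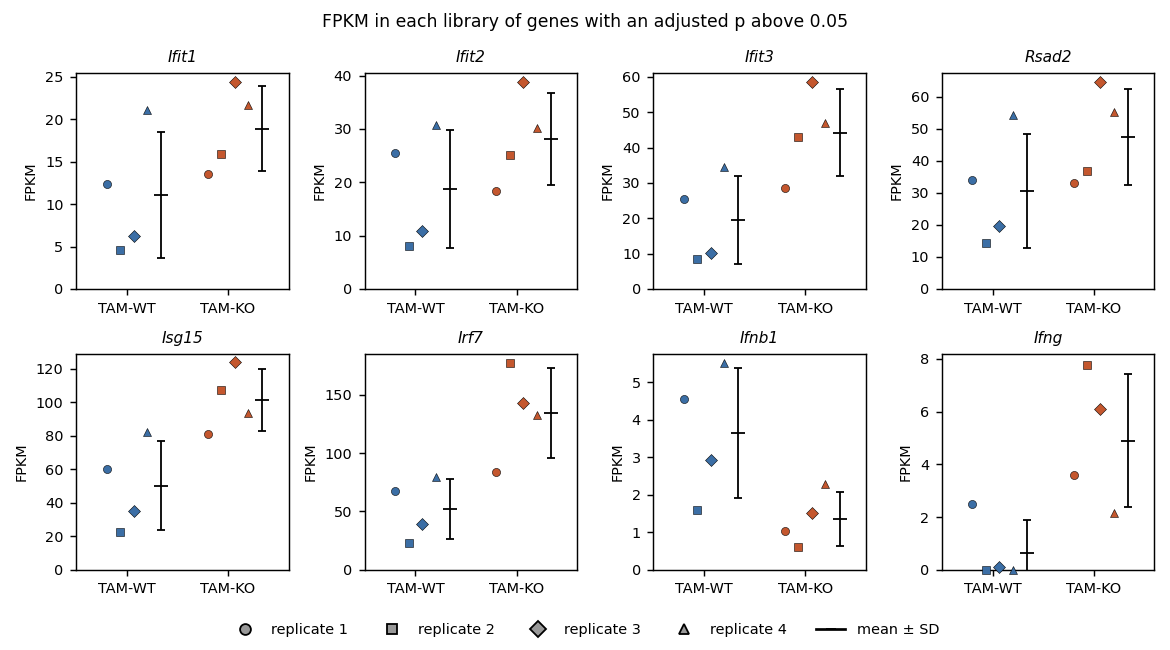
FPKM (vertical axes, from 0) in each library of Ifit1, Ifit2, Ifit3, Rsad2, Isg15, Irf7, Ifnb1 and Ifng, none of which passed the test, with marker shapes for replicate numbers and mean ± SD (n = 4) beside the points. TAM-WT replicate 4 (triangle) is the highest TAM-WT library in 7 panels, while for Ifng it is at 0 and TAM-WT replicate 1 (2.49 FPKM) is highest.

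Of 13 receptors and transducers, 4 rose and none was called lower by edgeR on all libraries. Stat2, a transducer of the type I interferon signal, rose 1.80-fold (adjusted p = 0.0442), the kinase Tyk2 rose by log2 0.26 (adjusted p = 0.0426), the factor Irf1 rose 1.77-fold (adjusted p = 0.0488) and the feedback inhibitor Socs1 rose 2.72-fold (adjusted p = 0.0393). Irf9 had a log2 fold change of 0.38 ± 0.15 SE (adjusted p = 0.126), and the receptor chains Ifnar1, Ifnar2, Ifngr1 and Ifngr2 had log2 fold changes between -0.21 and 0.08. Irf1, Socs1, Irf9 and the receptor chains were tested on 3 TAM-KO libraries. The 4 calls were near the threshold. Socs1 had 10.49, 3.20, 6.06 and 5.65 FPKM in TAM-WT and 9.51, 20.42, 22.82 and 13.08 FPKM in TAM-KO, so that TAM-KO replicate 1 lay below TAM-WT replicate 1. With the missing values of TAM-KO replicate 1 taken from the series-wide table, Irf1 was the 1 gene of the list still called, at an adjusted p of 0.0450, and Tyk2, Stat2 and Socs1 had 0.0514, 0.0531 and 0.0592 by edgeR. Irf1 and Socs1 are themselves raised by interferon. Over all 4 pathway lists 10 of 39 tested genes were called higher by edgeR on all libraries and none lower, where DESeq2 called 15 higher and 1 lower and voom 18 and 4. Of all genes tested, 4.58% were called higher by edgeR, 8.71% by DESeq2 and 14.7% by voom. With replicate 3 of TAM-WT, or replicate 2 or 3 of TAM-KO, left out, edgeR called 0 of the 39, with 20, 18 and 17 at an unadjusted p below 0.05. Without TAM-WT replicate 4 it called 3 higher, without TAM-WT replicate 1 it called 16 higher, and without TAM-WT replicate 2 it called 15 higher and 3 lower (Tlr7, Tbk1 and Ifnb1). Of all genes, these fits called 1.4%, 4.31% and 11.6% higher, in the same order.

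Among 12 tested genes of the interferon gamma response, 4 rose and 12 had a log2 fold change above 0. The chemokine gene Cxcl10, which draws T cells, rose 1.90-fold (adjusted p = 0.0324). The immunity-related GTPases Irgm1, Igtp and Tgtp1 rose 2.90-fold, 3.97-fold and 10.7-fold (adjusted p = 0.0305, 0.0269 and 0.0330). Cxcl10, Irgm1 and Igtp were tested on 3 TAM-KO libraries. Tgtp1 had 3.1, 0.09, 0.22 and 0.82 FPKM in TAM-WT and 5.34, 17.30, 21.94 and 4.39 FPKM in TAM-KO. TAM-WT replicate 1 held most of the TAM-WT level, and without it the fitted rise of Tgtp1 was 29.0-fold. DESeq2 called 7 of the 12 genes and voom 9, and leaving out 1 library gave 0 to 9 by edgeR. The median log2 fold change of these 12 genes was 1.78, beside 0.71 for the antiviral ISGs, a difference that was not tested. The summed FPKM of the 13 genes of that list was 398, 155, 198 and 295 in TAM-WT replicates 1 to 4. TAM-WT replicate 1 was thus the highest of its group for this list, where replicate 4 was the highest for most antiviral ISGs.

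Some markers of other cells moved with the groups. Of 7 T cell markers, Cd2 rose (on 3 TAM-KO libraries) and 6 had an unadjusted p below 0.05. Cd4, also on 3, ran the other way, with a log2 fold change of -0.29 (adjusted p = 0.507 by edgeR). Voom called 6 of the 7 higher, as did edgeR with the replicate block or without TAM-WT replicate 1. DESeq2 called 3, and the fits without 1 library gave 0 to 6. For these and the marker lists below, the share of all genes called higher was 8.71% by DESeq2 and 14.7% by voom. It was 0.184% to 11.6% by edgeR without 1 library. The T cell list summed to 2.51 to 16.45 FPKM in TAM-WT and to 17.8 to 44.8 FPKM in TAM-KO replicates 2 to 4, with TAM-WT replicate 1 the highest of its group. Of 7 NK cell markers, 4 were tested, and Nkg7 and Eomes rose (Eomes and the monocyte gene Ly6c2 on 3 TAM-KO libraries). Voom called all 4, and leaving out 1 library gave 0 to 4 by edgeR. In the same 7 libraries the 7 NK cell markers summed to 0.40 to 15.7 FPKM and 17.4 to 60.0 FPKM, with Ncr1 at 0 in at least 4 libraries. Of the markers not tested, Klrb1c had a mean of 0.155 FPKM in TAM-WT and 0.087 FPKM in TAM-KO (on 3 libraries). Gzma had 0.095 and 0.52 FPKM and Ncr1 had 0.025 and 0.085 FPKM, all of them low.

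Of 5 monocyte markers Ly6c2 and Plac8 rose, while Ccr2 and Vcan had log2 fold changes of -0.05 and -0.38, and the fits without 1 library called 1 or 2. Of 5 neutrophil markers, 3 were tested and S100a8 rose, and leaving out any library but TAM-KO replicate 1 gave 0 calls by edgeR. Of 7 conventional dendritic cell markers Xcr1 rose, while Ccr7 had a log2 fold change of -0.36 and Cd209a one of -1.01 (adjusted p = 0.0650 by edgeR). Cd209a was called lower by DESeq2, by voom and, in edgeR, without TAM-WT replicate 2, and over the fits without 1 library 0 to 2 dendritic cell markers were called higher. Of 7 melanoma cell markers Sox10 rose and 6 had an unadjusted p below 0.05. All 7 were called higher by voom and, in edgeR, without TAM-WT replicate 2, 5 by DESeq2 and 4 with the replicate block, and the fits without 1 library gave 0 to 7. Over the 7 libraries the monocyte list summed to 95.7 to 224 FPKM and 299 to 442 FPKM, and the dendritic cell list to 11.4 to 22.8 FPKM and 16.0 to 18.6 FPKM. The neutrophil list summed to 8.23 to 9.74 FPKM in TAM-WT and 16.8 to 162 FPKM in TAM-KO, where TAM-KO replicate 1 is the highest. Melanoma cell markers summed to 1958 to 4382 FPKM in TAM-WT and 3817 to 5057 FPKM in TAM-KO. TAM-WT replicate 2, the lowest TAM-WT library for most ISGs, had the highest of these sums in its group. Of 9 macrophage markers, 0 passed in edgeR on all libraries (4 at an unadjusted p below 0.05). DESeq2 called 1 higher and 3 lower, voom 1 and 4, and edgeR 1 and 3 without TAM-WT replicate 2 and 0 and 2 without TAM-KO replicate 4. The macrophage list summed to 14518 to 16923 FPKM and 11977 to 14700 FPKM. The plasmacytoid dendritic cell list, which marks the main makers of type I interferon, summed to at most 6.08 FPKM in any library with all its values, the B cell list to at most 10.9 FPKM, the fibroblast list to at most 6.51 FPKM and the endothelial list to at most 15.3 FPKM. No gene of these 4 lists was called by edgeR (at most 1 a list at an unadjusted p below 0.05), 1 endothelial gene was by DESeq2 and 1 B cell gene by voom. The part of these cells in the ISG levels was not tested.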

How the data were processed

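RNA of CD45+F4/80+ cells sorted from day 14 B16 tumors was measured in 4 TAM-WT and 4 TAM-KO libraries, grouped by the deposited sample titles. The authors sequenced with BGISEQ-500. The submitters' processing notes name HISAT2 2.0.4, Bowtie2 2.2.5, RSEM 1.2.12 and GRCm38.p6. Expected counts, estimated by RSEM, were deposited by the authors without normalization. FPKM values were deposited by the authors, relative to gene length and mapped reads. The authors' table of the whole series, which lists 3996 genes named as differentially expressed, also holds their own comparison, which was not used.

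The table of TAM-KO replicate 1 has no value for 4214 genes that the other 7 tables give, and 629 misplaced values and 1 joined line of that table were not used. Counts were rounded and tested with edgeR 4.0.16 in R 4.3.3 (TMM, filterByExpr, glmQLFit, glmQLFTest) on 8 libraries, or on 7 for genes without TAM-KO replicate 1, with Benjamini-Hochberg adjustment over both sets. The test was also run on simulated counts in which genes varied independently. That check does not cover shifts shared by many genes of a library, such as those seen for the ISGs. Alternatives used DESeq2 1.42.0, limma 3.58.1 and its voom, other filters and scalings, a replicate block, a stricter threshold and each library left out. The log2 CPM added 0.5. P-values carry the spread between libraries, 1 per mouse. The fewest counts of a member in a library were 7.

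The members and lists were chosen with earlier results of these data known. Values for every library are given for members called in each role group, or else for its most abundant member, and called pathway genes and the interferon gene with the most counts are named. A gene of the pathway lists is not reported here and is left out of their counts. RefSeq promoter windows were searched by script, and shared 50-base stretches were counted in GENCODE M21 transcripts.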

Additional observations from a re-analysis of the deposited data

Results flagged for a closer look

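In 104 groups of 4 libraries compared, over the FPKM of the 40 ISGs and of the named pathway genes, 7 values lay far from the other 3 of their group by Dixon's criterion, where chance gives about 5.2. TAM-KO replicate 1 was low for 4 ISGs, with 17.14 FPKM of Ddx58, 14.27 FPKM of Oas1g, 13.11 FPKM of Oas3 and 25.45 FPKM of Parp14. TAM-WT replicate 2 was low for Ifitm3, at 310.82 FPKM. TAM-WT replicate 1 was high for Sting1, at 36.74 FPKM, and for Ifng, at 2.49 FPKM.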

How the results depend on the processing

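The count of ISGs called higher was 12 by edgeR and stayed within 1.5 times of that with DESeq2 size factors, no filter, a minimum of 10 counts, the replicate block or missing TAM-KO replicate 1 values taken from the series-wide table. It was 27 with DESeq2, 29 with voom, 25 and 23 with limma on log2(FPKM + 1) and log2(FPKM + 0.1), 24 with scaling to total reads, an alternative chosen after seeing the data, and 0 at an adjusted p of at most 0.01. All 12 were kept in the DESeq2, voom, limma and total-read fits. Over all genes, 8.71% were called higher by DESeq2, 14.7% by voom, 7.38% and 7.07% by limma and 7.01% with total reads. The count called and at least 2-fold changed was 4, and it was 7, 8, 10 and 7 with voom, both limma fits and total reads, and 0 at 0.01. Calls in the pathway lists were 10, and 16, 22, 17 and 17 with DESeq2, voom and both limma fits, and 0 at 0.01. Leaving out 1 library gave 0 to 20 ISGs called, where 0.184% to 11.6% of all genes were called higher. It also gave 0 to 8 ISGs at least 2-fold changed and 0 to 18 pathway genes. No ISG was called lower in any fit, and none of the 40 changed sign. Limma on log2(FPKM + 0.1) moved the median log2 fold change of all genes to 0.11, beside 0.86 for the ISGs.

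Allowing 1 mismatch put the ISRE core in 93.5% of the ISG promoters with a window and in 36.1% of all. Replicate numbers were not taken to pair the mice, since the correlations of same-numbered libraries' deviations were -0.35, 0.03, -0.25 and 0.27. With the replicate block 9 ISGs were called, 6 of them among the 12, and 8 pathway genes. Depth was lowest for Ifi44, with 7 counts in a TAM-WT library, and 4 of the ISGs rest on 3 TAM-KO libraries.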
